A study of Mus musculus with 2 samples.

Results

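The genes described here are 8 semaphorins of classes 4, 6 and 7 (Sema4a, Sema4b, Sema4c, Sema4f, Sema6a, Sema6b, Sema6c and Sema7a) and the semaphorin receptors Plxnb1 and Plxnb3. They are 10 of the 31053 genes in the expression matrices and were taken by name. Both conditions had 1 library each, so each value below comes from 1 library, and intervals cover counting error alone. The uninjured library held cells of 5 optic nerves, and the injured library held cells of the crush site of 5 optic nerves resected 2 weeks after optic nerve crush (ONC). All mice were wildtype 129S1/SvlmJ of both sexes, pooled within a library, 10 weeks old, with the crush made at 8 weeks. The sample labels instead give an age of 56 days and name the time after crush for both libraries, so the title and the study's design were used to assign the uninjured library. The authors deposited 1369 barcodes of the oligodendrocyte lineage in 3 types, which are oligodendrocyte progenitor cells (OPCs), newly formed oligodendrocytes (NFOs) and oligodendrocytes.

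Semaphorins are guidance ligands that share a sema domain. Those of classes 4 and 6 cross the membrane, and Sema7a is held on the cell surface by a lipid anchor, so that a glial cell presents them to axons it touches. Plexins bind them and act inside the cell on small GTPases, and plexins of the B family also recruit exchange factors that activate Rhoa, through which a growth cone can collapse. In myelinated tracts several semaphorins made by oligodendrocytes are known as inhibitors of axon growth, while plexins on the same cells receive semaphorin signals during their maturation.

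The types carried their defining markers as lists, with exceptions among single markers. Pdgfra, the growth factor receptor of OPCs, was at 2142 CPM in uninjured OPCs and 961 CPM in injured OPCs against at most 2.89 CPM in oligodendrocytes (CPM is the sum of a gene's UMIs over the barcodes of a class, scaled to 1000000 UMIs of that class; a UMI marks 1 captured molecule at its 3′ end, so levels need no scaling for transcript length). The 7 NFO markers summed to 5269 CPM in uninjured and 8060 CPM in injured NFOs, against 1973 and 1463 CPM in OPCs and 1145 and 1053 CPM in oligodendrocytes. In the uninjured library, however, Enpp6 was at 404 CPM in NFOs and 524 CPM in oligodendrocytes, and Itpr2 at 266 CPM in NFOs and 414 CPM in OPCs. Mag was at 4043 and 3574 CPM in uninjured and injured oligodendrocytes, against 839 and 1026 CPM in NFOs. Cnp, another oligodendrocyte marker, was at 4471 CPM in injured NFOs and 4250 CPM in injured oligodendrocytes. Uninjured OPCs, NFOs and oligodendrocytes numbered 58, 44 and 857 barcodes with 171329, 94130 and 4149375 UMIs, and the injured ones 17, 100 and 293 barcodes with 117597, 351851 and 2302349 UMIs. The median depth of oligodendrocyte barcodes was 3060 UMIs in the uninjured and 1268 UMIs in the injured library. Malat1, a nuclear RNA, was under 0.5% of UMIs in 5.60% of uninjured and 45.4% of injured oligodendrocyte barcodes, and in 63.6% and 77% of NFO barcodes. The libraries shared 0 barcodes. Mag, which OPCs should lack, was at 52.5 CPM in uninjured OPCs with a UMI in 12.1% of barcodes (4.99 to 23.3%), and at 51.0 CPM in injured OPCs with a UMI in 35.3% (14.2 to 61.7%). Mog, another myelin gene, was at 35.0 CPM in uninjured OPCs and at 0 UMIs in injured ones. Whether these UMIs came from free RNA was not tested.

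In the uninjured and injured nerve together, 5 of the genes held most of the molecules. Sema6a was the most abundant with 810 UMIs, followed by Plxnb3 with 617, Plxnb1 with 378, Sema7a with 282 and Sema4c with 234. The remaining genes were near the limit of detection, with 42 UMIs of Sema4f, 31 of Sema6b, 18 of Sema4a, 10 of Sema4b and 9 of Sema6c. All 10 genes summed to 383 CPM (365 to 402) in uninjured and 235 CPM (216 to 256) in injured oligodendrocytes, whereas they summed to 446 CPM (322 to 603) and 426 CPM (361 to 500) in NFOs.

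**Figure D1:**
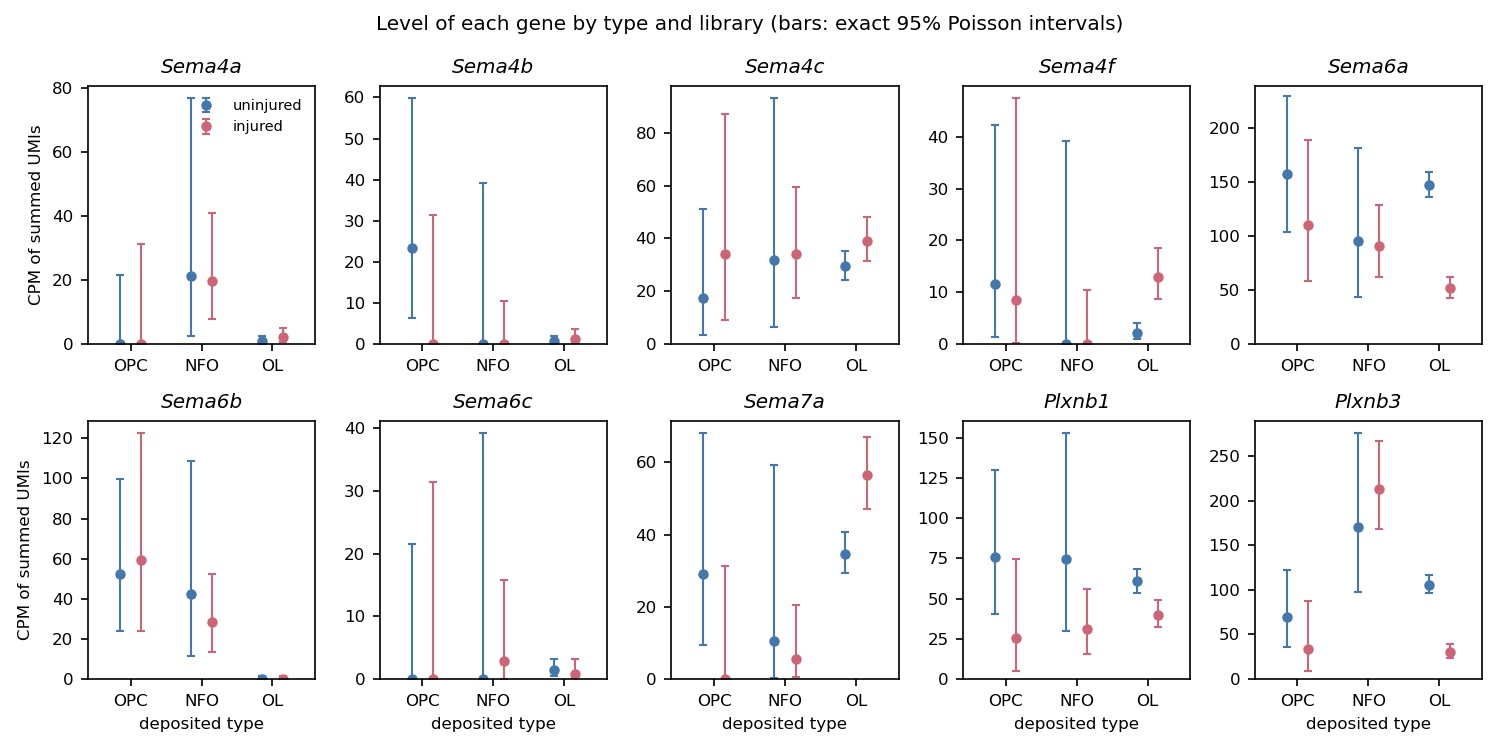
CPM of summed UMIs (vertical axis, a separate linear scale for each gene) of the 10 genes in OPCs, NFOs and oligodendrocytes (OL) of the uninjured (blue) and injured (red) library, with exact 95% Poisson intervals that cover counting error only. Plxnb3 stands at 213 CPM in injured NFOs and 30.8 CPM in injured oligodendrocytes, and Sema6a at 147 CPM in uninjured and 51.7 CPM in injured oligodendrocytes.

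Promoter sequence is shown for 3 of the genes whose levels separated the classes and for which a single start is listed. These are Plxnb3, which was high in injured NFOs, and Sema7a and Sema4f, whose summed UMIs gave a higher level in injured oligodendrocytes. The Sema4f level rests on 39 UMIs, and the direction of Sema7a depended on how barcodes were weighted. The sequences are from RefSeq (GRCm38) and run 5′ to 3′ on the strand of the gene up to the base before its first exon. Capitals mark matches on either strand to ACAAAG (a core bound by Sox proteins), CAGCTG (an E-box) or TGANTCA (the AP-1 site).
Plxnb3: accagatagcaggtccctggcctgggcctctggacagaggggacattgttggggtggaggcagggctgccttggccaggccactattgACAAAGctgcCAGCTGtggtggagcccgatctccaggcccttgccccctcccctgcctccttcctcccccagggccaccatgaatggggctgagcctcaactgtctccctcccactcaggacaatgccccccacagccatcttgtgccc
Sema7a: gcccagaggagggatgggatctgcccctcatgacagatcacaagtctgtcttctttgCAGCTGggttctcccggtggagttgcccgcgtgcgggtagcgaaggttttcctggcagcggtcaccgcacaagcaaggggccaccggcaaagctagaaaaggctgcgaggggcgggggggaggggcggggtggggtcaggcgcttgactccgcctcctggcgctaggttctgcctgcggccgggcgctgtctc
Sema4f: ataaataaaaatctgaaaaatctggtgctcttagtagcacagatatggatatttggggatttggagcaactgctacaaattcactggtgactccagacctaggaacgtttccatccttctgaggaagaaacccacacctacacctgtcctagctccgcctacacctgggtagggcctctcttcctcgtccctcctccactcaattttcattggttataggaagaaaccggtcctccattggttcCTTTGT

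These windows lie at chrX:73756853-73757089 on the plus strand (Plxnb3), chr9:57939862-57940111 on the plus strand (Sema7a) and chr6:82939770-82940019 on the minus strand (Sema4f). Plxnb3 held ACAAAG and CAGCTG once each, Sema7a held CAGCTG once, and Sema4f held ACAAAG once, on the reverse strand. Of the 32851 promoters in the RefSeq table, 16.5% held ACAAAG within the 250 bases before the start, 13% held CAGCTG and 6.75% held TGANTCA. Of the 10 genes, 9 had a promoter in the table, with 16 windows in all. ACAAAG was held by 2 of these 9 genes, CAGCTG by 3 and TGANTCA by 2. A match of letters is a description only.

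Sema6a, a class 6 semaphorin that signals through A-type plexins, was the highest of the 8 semaphorins in every class except injured oligodendrocytes, where Sema7a reached it. The gene spans chr18:47235598-47368870 on the minus strand (ENSMUSG00000019647; GENCODE vM21, GRCm38). Sema6a was at 158 CPM (27 UMIs) in uninjured OPCs, 95.6 CPM (9 UMIs) in uninjured NFOs and 147 CPM (610 UMIs; 136 to 159 CPM) in uninjured oligodendrocytes. In the injured library it was at 110.5 CPM (13 UMIs) in OPCs, 91.0 CPM (32 UMIs) in NFOs and 51.7 CPM (119 UMIs; 42.8 to 61.9 CPM) in oligodendrocytes. Injured oligodendrocytes were the lowest of the 6 classes by CPM. In the order of the levels the intervals of neighbouring classes overlapped, except for the lowest pair, injured NFOs and injured oligodendrocytes. The level in injured oligodendrocytes was 0.352 times that in uninjured ones (exact conditional 95% interval 0.286 to 0.429), and 0.568 times that in injured NFOs (0.382 to 0.868). With each barcode given the same weight, mean normalized expression was 0.158 in injured oligodendrocytes and 0.147 in uninjured NFOs, so the lowest class depended on the weighting.

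Sema7a, the anchored semaphorin, binds integrins that contain Itgb1 and the plexin Plxnc1, and lies at chr9:57940112-57962865 on the plus strand (ENSMUSG00000038264). Most of its UMIs were in oligodendrocytes, with 34.7 CPM (144 UMIs; 29.3 to 40.9 CPM) in the uninjured library and 56.5 CPM (130 UMIs; 47.2 to 67.0 CPM) in the injured one. NFOs held 10.6 CPM (1 UMI) and 5.68 CPM (2 UMIs), and OPCs held 29.2 CPM (5 UMIs) in the uninjured library and 0 UMIs in the injured one. The injured oligodendrocyte level was 1.63 times the uninjured one (1.27 to 2.08) and 9.93 times that of injured NFOs (2.69 to 82.9). With each barcode given the same weight the ratio of injured to uninjured oligodendrocytes turned to 0.678, and over barcodes under 8000 UMIs to 0.738.

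Sema4c, a class 4 semaphorin that binds the plexin Plxnb2, differed least. It lies at chr1:36548639-36558349 on the minus strand (ENSMUSG00000026121), and its exons overlap those of D430040D24Rik on the other strand. Whether this overlap touched its UMIs was not tested. Sema4c was at 17.5 CPM (3 UMIs), 31.9 CPM (3 UMIs) and 29.4 CPM (122 UMIs) in uninjured OPCs, NFOs and oligodendrocytes, and at 34.0 CPM (4 UMIs), 34.1 CPM (12 UMIs) and 39.1 CPM (90 UMIs) in the injured ones. All 6 intervals overlapped, and the ratio of injured to uninjured oligodendrocytes was 1.33 (1.001 to 1.76), or 0.795 with each barcode given the same weight.

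Sema4f, another membrane-spanning semaphorin of class 4, was close to absent from uninjured oligodendrocytes. It lies at chr6:82911885-82939769 on the minus strand (ENSMUSG00000000627). Uninjured oligodendrocytes held 9 UMIs (2.17 CPM, 0.992 to 4.12) in 6 of 857 barcodes and injured oligodendrocytes 30 UMIs (13.0 CPM, 8.79 to 18.6) in 16 of 293 barcodes, a ratio of 6.01 (2.78 to 14.4). Without the barcode that held most of its UMIs, 7 of the 30, the ratio was 4.64. OPCs held 2 UMIs in the uninjured and 1 UMI in the injured library, and NFOs held 0 in both. The 39 UMIs of both oligodendrocyte classes are under the minimum of 50 used here for a call, so Sema4f was not counted below.

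Sema6b, a class 6 ligand of A-type plexins, was found in the early types. It lies at chr17:56123085-56140343 on the minus strand (ENSMUSG00000001227). Uninjured OPCs held 52.5 CPM (9 UMIs) and injured OPCs 59.5 CPM (7 UMIs), and NFOs 42.5 CPM (4 UMIs) and 28.4 CPM (10 UMIs). Oligodendrocytes held 1 UMI among 4149375 in the uninjured library and 0 among 2302349 in the injured one. Against a floor of 3 UMIs over the class, the level in injured OPCs was at least 45.7-fold higher and that in injured NFOs at least 21.8-fold higher than in injured oligodendrocytes. With counting error in the 7 and 10 UMIs included, the lower limits of the exact intervals were 28.2-fold and 14.7-fold. In the uninjured library the oligodendrocyte level was 0.00459 times that of OPCs (0.000105 to 0.0331). The share of barcodes with Sema6b was 13.8% (6.15 to 25.4%) in uninjured OPCs, at a median depth of 2290 UMIs. Among the same barcodes Mag, which OPCs should lack, was found in 12.1% (4.99 to 23.3%), also on 9 UMIs. In injured OPCs Sema6b was found in 29.4% and Mag in 35.3%, whereas Mog held 0 UMIs. The intervals of Sema6b and Mag overlapped in both libraries. Whether the Sema6b UMIs in OPCs came from free RNA was not tested. Pdgfra was found in 1.05% of uninjured oligodendrocytes, which should lack it, at 3060 UMIs.

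The other semaphorins were read from single molecules. Sema4a (chr3:88435959-88461182, minus strand, ENSMUSG00000028064), known for its part in immune and retinal cells, had 2 and 7 UMIs in uninjured and injured NFOs, which is 21.3 CPM (2.57 to 76.8) and 19.9 CPM (8.00 to 41.0), 4 and 5 UMIs in oligodendrocytes, and 0 in OPCs of both libraries. Within the injured library, its level in oligodendrocytes was 0.109 times that in NFOs (0.0273 to 0.399). Exons of Sema4a overlap Mir7011 on the same strand, and whether this touched its UMIs was not tested. Sema4b, of class 4 (chr7:80186841-80226527, plus strand, ENSMUSG00000030539) had 4 UMIs in uninjured OPCs, 3 UMIs in the oligodendrocytes of each library and 0 in the other classes. Sema6c, of class 6 (chr3:95160457-95174024, plus strand, ENSMUSG00000038777) had 6 UMIs in uninjured and 2 UMIs in injured oligodendrocytes, 1 UMI in injured NFOs and 0 elsewhere. A count of 0 allows up to 3 UMIs, which is 8.53 CPM in injured NFOs and 31.9 CPM in uninjured NFOs, so that for these genes a difference between types was mostly not detectable at this depth.

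Of the receptors, Plxnb3 was highest in NFOs by CPM of summed UMIs, though in the uninjured library the order depended on the weighting. The gene, a receptor of Sema5a that is known from white matter, lies at chrX:73757090-73772514 on the plus strand (ENSMUSG00000031385). In the uninjured library Plxnb3 was at 70.0 CPM (12 UMIs; 36.2 to 122) in OPCs, 170 CPM (16 UMIs; 97.2 to 276) in NFOs and 106 CPM (439 UMIs; 96.1 to 116) in oligodendrocytes. In the injured library it was at 34.0 CPM (4 UMIs; 9.27 to 87.1) in OPCs, 213 CPM (75 UMIs; 168 to 267) in NFOs and 30.8 CPM (71 UMIs; 24.1 to 38.9) in oligodendrocytes. The NFO level stood apart from the others in the injured library, where it was 6.27 times that of OPCs (2.35 to 23.6). In uninjured nerves the NFO interval overlapped that of oligodendrocytes, and the ratio of oligodendrocytes to NFOs was 0.622 (0.379 to 1.10). With each barcode given the same weight, mean normalized expression there was 0.429 in NFOs and 0.515 in oligodendrocytes. A UMI was found in 22.7% and 35.5% of these barcodes.

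Plxnb1, a receptor of Sema4d that couples to Rhoa through Arhgef11 and Arhgef12, lies at chr9:109095389-109119917 on the plus strand (ENSMUSG00000053646), and its exons overlap those of Gm7628 on the other strand. Uninjured OPCs, NFOs and oligodendrocytes held 75.9 CPM (13 UMIs), 74.4 CPM (7 UMIs) and 60.7 CPM (252 UMIs; 53.5 to 68.7). Injured ones held 25.5 CPM (3 UMIs), 31.3 CPM (11 UMIs) and 40.0 CPM (92 UMIs; 32.2 to 49.0). The injured level was the lower one in each type, but only the intervals of oligodendrocytes did not overlap, with a ratio of 0.658 (0.513 to 0.839). Over barcodes under 8000 UMIs this ratio turned to 1.14.

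To ask how these genes differed between the injured and the uninjured nerve, genes with at least 50 UMIs in both classes together were counted as called when their ratio was past 2-fold. In oligodendrocytes 5 of the 10 genes had enough UMIs, 2 of them (Plxnb3 and Sema6a) were past 2-fold lower and 0 past 2-fold higher. Of all 8591 genes with enough UMIs, 4.06% were past 2-fold lower and 5.98% past 2-fold higher. The ratio for Plxnb3 was 0.291 (0.224 to 0.375), the lowest of the 5. The median ratio of the 5 genes was 0.658 and that of all genes 1.03. In both genes the injured level was the lower one under each of 12 alternatives, with ratios of 0.136 to 0.465 for Plxnb3 and 0.171 to 0.431 for Sema6a.

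**Figure D2:**
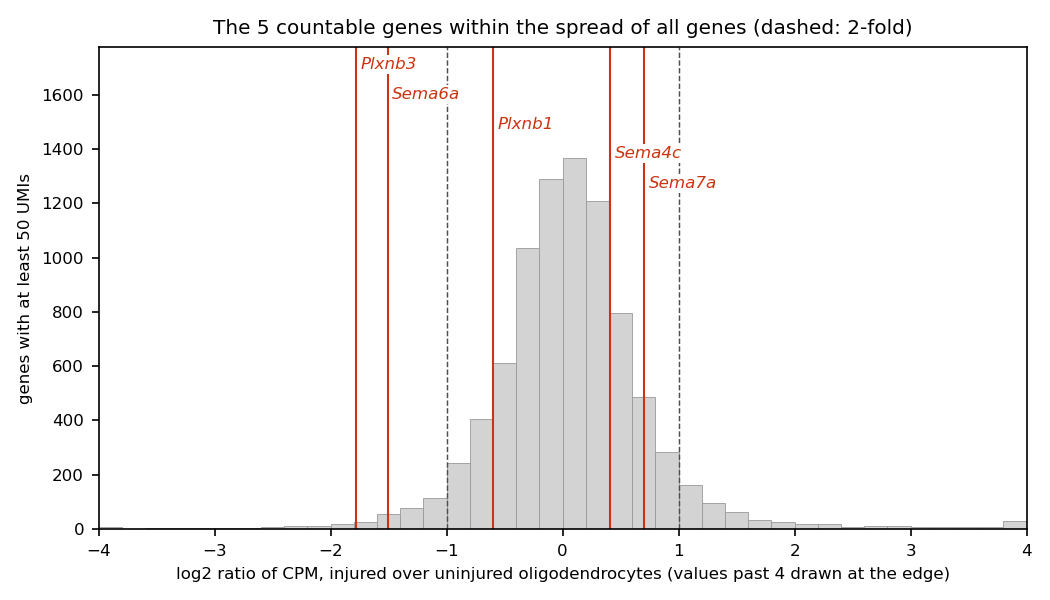
Distribution of the log2 ratio of CPM, injured over uninjured oligodendrocytes, over the 8591 genes with at least 50 UMIs (grey bars, number of genes per bin), with the 5 countable genes as red lines and the 2-fold limits dashed. Plxnb3 and Sema6a lie past 2-fold lower, as do 4.06% of all genes, and Plxnb1, Sema4c and Sema7a lie between the limits.

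In NFOs, Plxnb3 alone had enough UMIs, and it was not past 2-fold, with a ratio of 1.25 (0.724 to 2.31). Of 1695 genes in NFOs, 13.3% were past 2-fold higher and 4.01% past 2-fold lower, and the median gene was itself at a ratio of 1.15, against which Plxnb3 was at 1.09. Sema6a in NFOs was at a ratio of 0.951 (0.444 to 2.27) on 41 UMIs in all, and this value ran from 0.714 to 2.10 under the alternatives. The ratio in oligodendrocytes divided by the ratio in NFOs was 0.232 (0.120 to 0.433) for Plxnb3 and 0.370 (0.152 to 0.822) for Sema6a. Neither interval included 1, but both take UMIs as independent. For Sema6a, 1 barcode held 5 of the 9 UMIs in uninjured NFOs and 1 held 9 of the 32 in injured ones. Such clustering is left out of the interval. Whether the difference between the types is larger than the spread between animals could not be tested with 1 library per condition. In OPCs no gene reached 50 UMIs, and Sema6a was at a ratio of 0.702 (0.332 to 1.41), Plxnb3 at 0.486 (0.114 to 1.60) and Plxnb1 at 0.336 (0.0615 to 1.22).

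Maturation was read within each library. In the injured nerve, 5 genes had enough UMIs over oligodendrocytes and NFOs together. Sema7a was past 2-fold higher in oligodendrocytes, where 19.4% of 6563 genes were, and Plxnb3 was past 2-fold lower at 0.145 (0.103 to 0.203), where 13.5% were. In the uninjured nerve Sema7a was again past 2-fold higher in oligodendrocytes, at 3.27 on 1 UMI in NFOs (0.577 to 130), beside 24% of 7651 genes, and 0 of the 5 genes were past 2-fold lower, beside 17.7%. Between uninjured oligodendrocytes and OPCs none of the 5 genes was past 2-fold, beside 19.9% of 7806 genes higher and 18.6% lower, and the ratios ran from 0.800 for Plxnb1 to 1.68 for Sema4c. Between injured oligodendrocytes and OPCs, 1 of the 5, Sema6a, was past 2-fold lower at 0.468 (0.263 to 0.904), beside 18.4% of 6276 genes, and was no longer so against the median gene, at 0.509. Sema7a, with 130 UMIs against 0, was past 2-fold higher, beside 22.6%, and at least 2.21-fold against the floor of 3 UMIs, with a lower limit of 1.77 for the exact interval. The shares of members called were thus read against backgrounds in which a 2-fold difference was common.

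Depth differed between the libraries and moved with these levels, and its part in the pooled ratios was not tested beyond the depth classes given here. In the injured library 84 of 293 oligodendrocyte barcodes had 8000 UMIs or more and held 86.9% of all oligodendrocyte UMIs, whereas in the uninjured library 203 of 857 such barcodes held 58.7%. The deep injured barcodes held 92.3% of the UMIs of Sema7a (120 of 130) and 92.4% of those of Sema6a (110 of 119), both near the share of all UMIs, but 65.2% of those of Plxnb1 (60 of 92). Within uninjured oligodendrocytes the 5 genes were lower in deep barcodes than in shallow ones. Plxnb3 was at 328 CPM in barcodes under 1000 UMIs, 144 CPM at 1000 UMIs up to 8000 and 71.0 CPM at 8000 UMIs or more, and Plxnb1 at 182, 86.8 and 38.2 CPM. The semaphorins showed the same order, with Sema6a at 246, 170 and 128 CPM, Sema4c at 54.7, 38.7 and 22.2 CPM and Sema7a at 45.6, 44.9 and 27.5 CPM. In the injured library, barcodes under 1000 UMIs held 0 UMIs of Plxnb3 and 5 of Plxnb1 among 91351.

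Within barcodes of 8000 UMIs or more, Sema6a was at 128 CPM in the uninjured and 55.0 CPM in the injured library, a ratio of 0.431 (0.344 to 0.537), and Plxnb3 at 71.0 and 28.5 CPM, a ratio of 0.401 (0.292 to 0.544). Sema7a was at 27.5 and 60.0 CPM, a ratio of 2.18 (1.60 to 2.99), and Sema4c at 22.2 and 38.0 CPM, a ratio of 1.71 (1.19 to 2.48). Plxnb1 was at 38.2 and 30.0 CPM with a ratio of 0.786 (0.558 to 1.10). So 2 of the 5 genes were past 2-fold lower beside 3.13% of 7631 genes, and 1, Sema7a, was past 2-fold higher beside 7.78%. Against the median gene, which was at 1.10, Sema7a was at 1.98 and no longer past 2-fold. These barcodes still differed in depth, with medians of 11054 UMIs in the uninjured and 22473 UMIs in the injured library.

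At 1000 UMIs up to 8000, where the medians of 2773 and 2494 UMIs were close, Sema6a and Plxnb3 were again past 2-fold lower, at 0.196 (0.0782 to 0.410) and 0.465 (0.250 to 0.796), beside 12.8% of 5256 genes. None of the 5 was past 2-fold higher, beside 5.57%. Plxnb1 turned to 129 CPM in injured against 86.8 CPM in uninjured barcodes, a ratio of 1.48 (0.944 to 2.25), and Sema7a was at 47.7 against 44.9 CPM, a ratio of 1.06 (0.488 to 2.06). Sema4f had 6 UMIs in 76 injured barcodes and 3 UMIs in 497 uninjured ones. Sema6a and Plxnb3 were thus lower in the injured library at both depths, and the direction of Plxnb1 differed with depth.

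**Figure D3:**
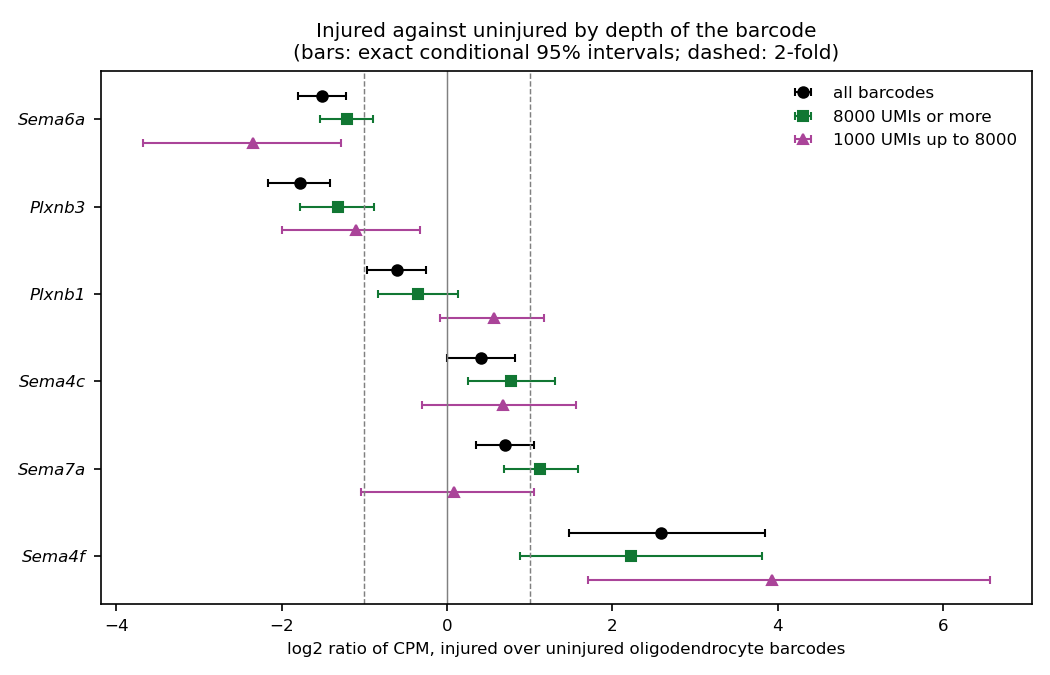
Log2 ratio of CPM, injured over uninjured oligodendrocyte barcodes, for 6 genes over all barcodes (black), barcodes of 8000 UMIs or more (green) and barcodes of 1000 UMIs up to 8000 (purple), with exact conditional 95% intervals and the 2-fold limits dashed. Sema6a and Plxnb3 lie left of 0 at each depth, Sema4f lies right of 0, and Plxnb1 lies at 0.786 in deep and 1.48 in shallower barcodes before the log.

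Barcodes poor in Malat1 were shallow, and the levels in them rest on few UMIs. The 133 injured oligodendrocyte barcodes with Malat1 under 0.5% of UMIs held 128148 UMIs, among them 1 of Sema6a, 1 of Plxnb3, 0 of Sema7a, 2 of Sema4c and 5 of Plxnb1. Sema6a was thus at 7.80 CPM (0.198 to 43.5) in them and 54.3 CPM in the other injured oligodendrocytes, whereas Plxnb1 was at 39.0 CPM (12.7 to 91.0) and 40.0 CPM. Without them, and without the 48 uninjured ones, the ratios were 0.366 for Sema6a and 0.299 for Plxnb3, close to the values over all barcodes. Of the 293 injured oligodendrocyte barcodes, 14 lay between 0.4% and 0.6% of Malat1. In injured NFOs, the 77 barcodes under the same limit still held 17 UMIs of Plxnb3, or 138 CPM (80.2 to 221), and the 23 others held 58 UMIs, or 254 CPM (193 to 328).

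Markers of macrophages and microglia were also higher in the injured library. The 12 markers summed to 27.5 CPM in uninjured and 282 CPM in injured oligodendrocytes, with all 12 detected in both, and to 21.3 CPM (2 of 12 detected) and 631 CPM (11 of 12) in NFOs. Lyz2 was at 0 UMIs in uninjured NFOs and at 134 CPM in injured ones. With the 13 injured oligodendrocyte barcodes that had over 1% of such UMIs left out, the ratios in oligodendrocytes were 0.353 for Sema6a, 0.293 for Plxnb3 and 1.63 for Sema7a. The 5 astrocyte markers summed to 159 CPM (3 of 5 detected) in uninjured and 318 CPM (5 of 5) in injured NFOs. In oligodendrocytes they summed to 51.1 and 31.7 CPM. Within NFOs Gfap went from 2 to 91 UMIs (21.3 and 259 CPM), whereas Slc1a2 held 12 UMIs in each library (127.5 and 34.1 CPM). The part of these cell types in the NFO levels was not tested.

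The share of barcodes with a UMI gave the same order for Sema6a and Plxnb3. Sema6a was found in 41.3% (38.0 to 44.7%) of uninjured and 20.8% (16.3 to 25.9%) of injured oligodendrocyte barcodes, and after each barcode was thinned to 500 UMIs in 6.68% (5.09 to 8.59%) and 1.71% (0.556 to 3.94%). Plxnb3 was found in 35.5% (32.3 to 38.8%) and 17.7% (13.6 to 22.6%), and after thinning in 8.59% (6.78 to 10.7%) and 2.39% (0.966 to 4.86%). Thinning left out 19 uninjured and 0 injured oligodendrocyte barcodes. Pdgfra, a gene that oligodendrocytes should lack, was found in 1.05% and 0.683% of the same barcodes, and after thinning in 0.358% (3 of 838; 0.0739 to 1.04%) and 0.341% (1 of 293; 0.00864 to 1.89%). The shares of Sema6a and Plxnb3 lay above those of Pdgfra with no overlap of the intervals, except after thinning in the injured library, where both overlapped.

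Plxnb1 was found in 22.8% and 19.8% of barcodes, and after thinning in 4.77% and 4.10%, with overlapping intervals on both scales. Sema4c was found in 11.7% and 16.4%, and after thinning in 2.86% and 1.37%. Sema7a was found in 14.1% (11.9 to 16.6%) and 22.2% (17.6 to 27.4%), but after thinning in 1.79% (15 of 838 barcodes) and 0.341% (1 of 293). The thinned order of Sema4c and of Sema7a went against their CPM, as did their ratios with each barcode given the same weight (0.795 and 0.678). For both genes the thinned intervals of the libraries overlapped, so the direction of neither gene was settled. The thinned share of Sema7a in the injured library, 1 barcode, was that of Pdgfra. UMIs of 3 or more of the 10 genes were held by 14.6% of uninjured and 18.4% of injured oligodendrocyte barcodes, and by 32.5% and 57.1% of those of 8000 UMIs or more, so that the number of genes seen in a barcode moved with its depth.

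**Figure D4:**
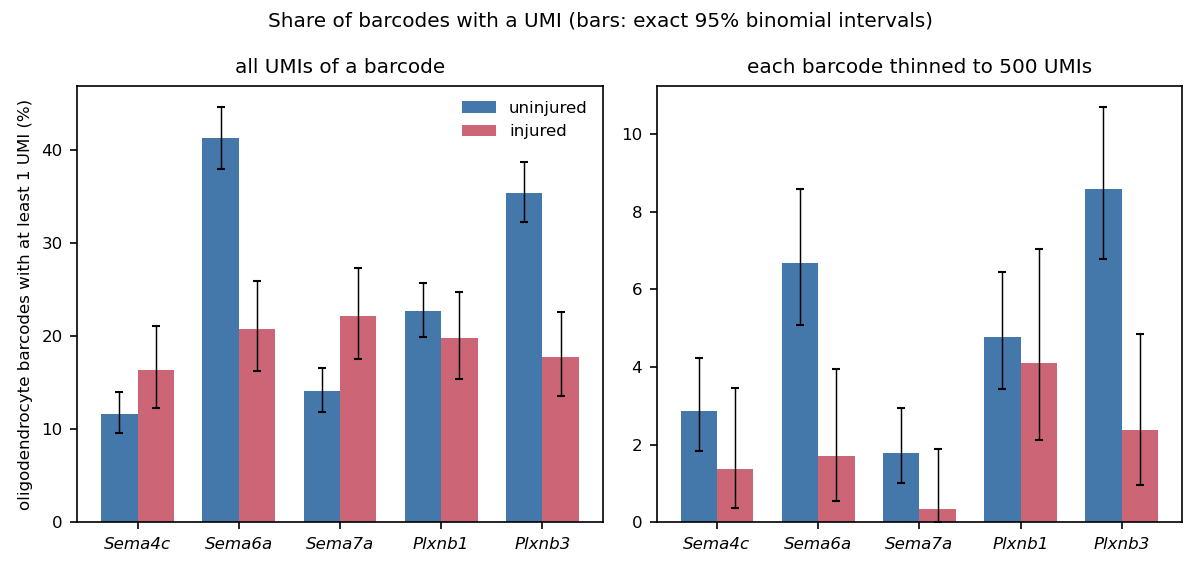
Share of oligodendrocyte barcodes with at least 1 UMI of 5 genes in the uninjured (blue) and injured (red) library, from all UMIs (left) and after each barcode was thinned to 500 UMIs (right, on a smaller axis), with exact 95% binomial intervals. Sema6a and Plxnb3 are lower in the injured library in both panels, whereas Sema7a is higher from all UMIs at 22.2% against 14.1% and lower after thinning.

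Other genes of the pathway did not share one direction. Of 12 other semaphorins, 5 had enough UMIs in oligodendrocytes, 1 was past 2-fold higher in the injured library and 0 were lower, beside the 5.98% and 4.06% of all genes. Sema4g, the gene past 2-fold, was at a ratio of 2.20 (1.34 to 3.62), and Sema4d, the ligand of Plxnb1, at 1.76 (1.64 to 1.88), with 403 CPM in the uninjured and 709 CPM in the injured library. The lowest were Sema3d at 0.660 (0.526 to 0.822) and Sema5a, the ligand of Plxnb3, at 0.704 (0.620 to 0.799). In injured NFOs Sema5a was at 367 CPM and Sema3d at 469 CPM, against 149 and 48.7 CPM in injured oligodendrocytes. The ratio of oligodendrocytes to NFOs for Sema5a was 0.405 (0.330 to 0.50) in the injured and 0.709 (0.487 to 1.07) in the uninjured library. With each barcode given the same weight it was 0.324 in the injured library but turned to 1.37 in the uninjured one, so that the order there depended on the weighting. The other semaphorins with enough UMIs for that comparison, Sema4d and Sema6d, were higher in injured oligodendrocytes, at 4.62 (3.52 to 6.18) and 4.004 (2.57 to 6.61).

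Of 14 other receptors, 3 had enough UMIs, and 2 were past 2-fold higher and 0 lower, beside the same background. Itgb1, the beta chain of integrins that bind Sema7a, was at a ratio of 2.65 (2.33 to 3.01) and Plxna1, a receptor of class 6 semaphorins, at 2.50 (1.62 to 3.87), while Nrp2, a receptor of secreted semaphorins, was at 1.82 (1.34 to 2.49). Itgb1 was also past 2-fold higher in NFOs, at 4.64 (2.76 to 8.41). Of 25 genes that act below plexins, 18 had enough UMIs, 2 were past 2-fold higher and 0 lower, again beside 5.98% and 4.06%, with a median ratio of 1.20. The small GTPases Mras and Rras were highest at 2.40 (1.53 to 3.81) and 2.28 (1.38 to 3.82), and the kinase Limk1 and the exchange factor Farp2 lowest at 0.587 (0.297 to 1.09) and 0.672 (0.407 to 1.08). Rhoa itself, named after its values were seen, was at 1.02 (0.955 to 1.08) in oligodendrocytes and 2.22 (1.53 to 3.31) in NFOs. In NFOs 11 of these 25 genes had enough UMIs, and 5 were past 2-fold higher and 0 lower, beside the 13.3% and 4.01% of all genes. Against the median NFO gene 3 of the 5 (Fscn1, Gipc1 and Mical3) stayed past 2-fold, while Rhoa was at 1.93 and Rock1 at 1.82. The highest there were the actin bundler Fscn1 at 3.36 (1.57 to 8.61) and the adaptor Gipc1 at 2.56 (1.47 to 4.81), and the lowest Dpysl3 at 1.28 (0.615 to 2.98) and Gsk3b at 1.31 (0.769 to 2.35).

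**Figure D5:**
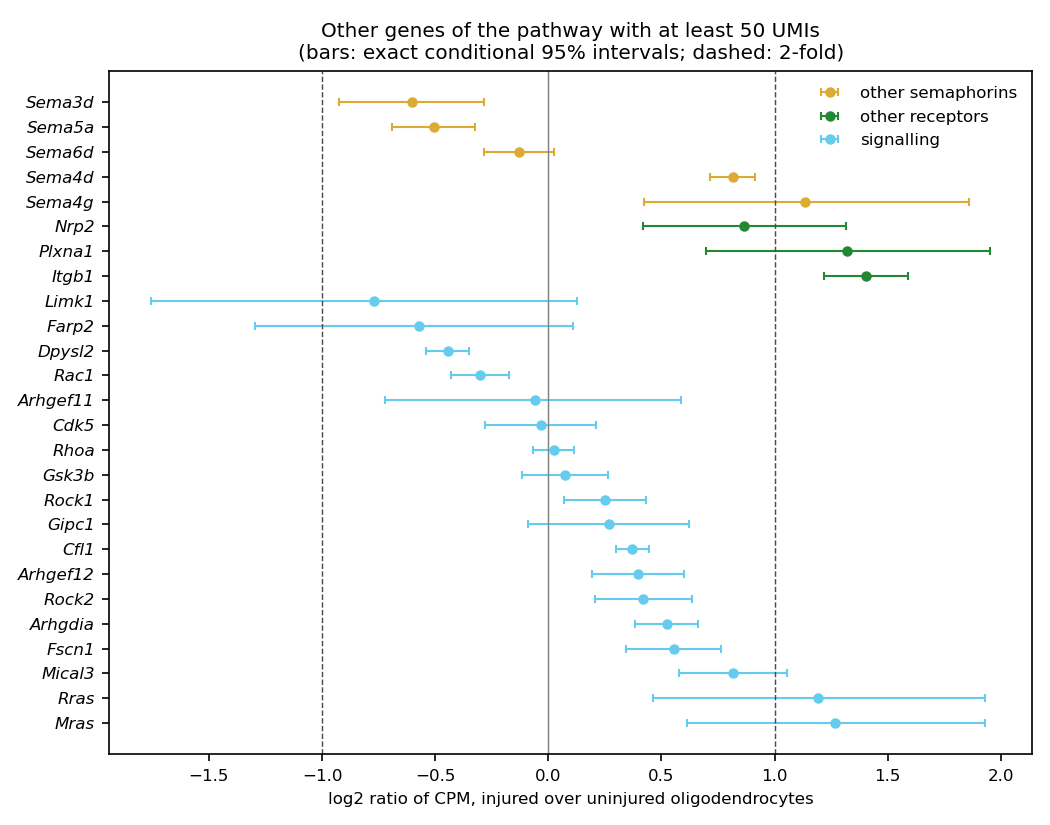
Log2 ratio of CPM, injured over uninjured oligodendrocytes, for the 26 other genes of the pathway with at least 50 UMIs (yellow, semaphorins; green, receptors; blue, signalling genes), with exact conditional 95% intervals and the 2-fold limits dashed. Sema4g, Plxna1, Itgb1, Rras and Mras lie past 2-fold higher and 0 genes past 2-fold lower.

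Over the 6 classes, the genes whose log2(CPM + 10) was most like that of a member were named for the 5 members with at least 200 UMIs, among 5320 genes. Pearson's r describes 6 points that share libraries and depth. Plxnb3 was most like Idh1 and Wtap (both r = 0.945) and Arfrp1 (r = 0.944), and Sema7a most like Cdadc1 (r = 0.991), Ttc33 (r = 0.979) and Rela (r = 0.978). Sema6a had the least close neighbours, Luc7l3 (r = 0.870), Scamp5 (r = 0.869) and Hnrnph1 (r = 0.840). Plxnb1 was most like Ing4 (r = 0.976), Ptch1 (r = 0.975) and Il18 (r = 0.971), and Sema4c most like Capn2 (r = 0.986), Wsb2 (r = 0.979) and Ppp2r2a (r = 0.977). Between the 5 members r ran from -0.783 (Sema4c and Sema6a) to 0.506 (Sema7a and Plxnb1).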

How the data were processed

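Single-cell RNA-seq of the oligodendrocyte lineage was measured in 1 uninjured and 1 injured optic nerve library (10x Genomics 3′ chemistry). Per the submitters' processing notes, bcl2fastq 2.17.1.14, Cell Ranger 1.3 and Seurat 4.0.3 were used. The deposited NE values (normalized expression) are each UMI count scaled to 10000 per barcode, with 1 added, as a natural log, and each barcode has a type. The authors' filters kept barcodes with 200 genes or more and no more than 20% of mitochondrial reads. Reads had been aligned to mm10, and coordinates are from GENCODE vM21 (GRCm38, the same assembly, counted from 1).

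To recover UMIs, NE was put back on the linear scale and divided by the lowest value above 0 in its barcode. The results were whole within 0.001 in 100% of the 959 uninjured and 410 injured barcodes. The libraries held 4414834 and 2771797 UMIs. UMIs were summed per type and library (Python 3.11.15, numpy 2.4.6, pandas 2.3.3). Levels, shares and ratios were given with exact Poisson, binomial and conditional 95% intervals (scipy 1.17.1), which cover counting error only. The ratio intervals were tested on simulated counts drawn as independent, which leaves out the clustering of UMIs in barcodes. With 1 library per condition there were no replicates and no test was made. In sums over cells, fewer cells of a state and less RNA per cell cannot be told apart. A floor of 3 UMIs over a class stood in for 0 in bounds. Doublets were kept, and Scrublet (scanpy 1.11.5), run in each library, called 8 uninjured and 3 injured barcodes, which were left out in an alternative. Of the gene names, 2 occurred more than once, which touched no member. The named genes were all 10 members, for each pathway list the 2 highest and 2 lowest ratios with at least 50 UMIs, and for each member with at least 200 UMIs the 3 genes of highest Pearson r. Members, lists and alternatives were chosen with earlier results of these data known. The deposited table that joins the libraries repeats these values and was not used.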

Additional observations from a re-analysis of the deposited data

Results flagged for a closer look

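The ratio of injured to uninjured Plxnb3 lay on opposite sides of 1 in the types, at 0.291 (0.224 to 0.375) in oligodendrocytes and 1.25 (0.724 to 2.31) in NFOs, and the ratio of these ratios was 0.232. The NFO interval included 1 and uninjured NFOs held 16 UMIs of the gene, so no direction was shown in NFOs. The difference between the types was not tested over samples, since each condition had 1 library, and counting error alone gave an interval of 0.120 to 0.433 for it. Under 12 alternatives, which used the same UMIs again, the NFO ratio ran from 1.09 to 1.88.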

How the results depend on the processing

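Of 155 ratios recomputed under an alternative, 126 stayed within the counting interval of the value over all UMIs and 28 moved beyond it. Both groups include ratios that changed side of 1. Only a ratio past 2-fold on at least 50 UMIs could be counted as reversed, and 1 was. Sema7a, injured oligodendrocytes over injured NFOs, was 0.341 after thinning to 500 UMIs, where it rested on single UMIs. Of 84 counts of members past 2-fold, 71 did not change by over 1.5 times. Among these are the counts in NFOs, injured over uninjured, which were 0 under each alternative. There at most 2 members had enough UMIs, and 0 under several alternatives, so these counts could hardly change. In oligodendrocytes, injured over uninjured, the count of members past 2-fold higher was 1 with a minimum of 20 UMIs (Sema4f) and 1 in barcodes of 8000 UMIs or more (Sema7a). In injured oligodendrocytes over NFOs, the counts higher and lower were 2 and 2 with each barcode given the same weight. They were 0 and 0 under 8000 UMIs, at 1000 UMIs up to 8000, thinned to 500 UMIs and with a minimum of 200 UMIs, since 0 members then had enough UMIs, and the count higher was 2 with a minimum of 20 UMIs. The alternatives in barcodes of 8000 UMIs or more and of 1000 UMIs up to 8000, and equal weights for Sema5a, were chosen after seeing the data. Sema7a was on the other side of 1 under 3 of 12 alternatives (injured over uninjured oligodendrocytes, lowest 0.191), and Sema4c and Plxnb1 under 2 each. Sema6a in NFOs, injured over uninjured, kept its side of 1 under 8 of 12 alternatives. Sema4c, injured oligodendrocytes over injured NFOs, kept its side under 10 of 12. No paired analysis was possible because each condition had 1 library. Depth limits Sema4a, Sema4b, Sema4f and Sema6c in every class, and Sema6b in OPCs and NFOs.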
